A study of Mus musculus with 8 samples.

Results

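The transcription factor genes of the primitive streak and the caudal embryo were followed through 8 RNA-seq libraries of 46C, a mouse embryonic stem cell line. They are T, Cdx1, Cdx2, Mixl1, Eomes, Gsc, Evx1, Tbx6, Mesp1 and Lhx1, 10 genes found by symbol among the 21069 features measured at day 5 and the 19011 genes measured at day 0. All 10 were listed at both days. The primitive streak is the groove through which epiblast cells pass during gastrulation to become mesoderm and endoderm. Wnt, Nodal, BMP and FGF signals switch on T-box and homeodomain factors there, and caudal factors then pattern the trunk and tail together with Hox genes. Stem cells that take the neural route normally bypass this programme.

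The groups at day 5 were a line labelled LincNDIME_KO (KO below), the wild-type line (WT), a line with a hairpin against Mef2c (shMef2c) and a line with a control hairpin (shCtrl). The same lines were profiled at day 0, and every group was 1 library. At day 0 the cells grew on irradiated embryonic fibroblasts in serum medium with the cytokine LIF. At day 5 they had been aggregated in suspension in a serum replacement medium and are labelled neural progenitor cells. The labels give the strain C57BL/6, and the number of clones behind each line is not stated in them. The title of the series places the noncoding RNA NDIME and Mef2c in one axis of neural differentiation, so KO over WT and shMef2c over shCtrl ask what each perturbation changes.

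Libraries held between 25996204 and 26834802 estimated reads at day 5 and between 20312032 and 20883674 at day 0. Mef2c, the hairpin's target, had 20 reads in shMef2c and 82 in shCtrl at day 5, but 44 reads in the library labelled shMef2c and 20 in shCtrl at day 0. That day 0 library did not show the lower Mef2c that its label implies, and is called the library labelled shMef2c throughout. Its Mef2c read share was 2.21 times that in shCtrl (95% interval 1.27 to 3.95). Over WT the ratio was 1.53 (0.936 to 2.54), an interval that includes 1. In KO, Mef2c had 17 reads against 77 in WT at day 5. No feature carries the name NDIME, so the deletion was not checked. Summed over 10 neural progenitor markers, the day 5 level was 225 FPKM in KO, 475 in WT, 177 in shMef2c and 537 in shCtrl. Of these sums Sox2, also at 247 RPKM in WT at day 0, gave 104, 98.4, 118 and 103 FPKM in that order. None of the markers was at 0, but Pax6 stood at 0.21 FPKM and Hes5 at 0.57 in shMef2c. For KO over WT 4 of the 10 were 2-fold lower and 0 higher, and for shMef2c over shCtrl 8 and 0. Over all features, 3.26% and 4.78% were lower in these pairs. With 1 library per group there is no replicate check and no test. "Higher" and "lower" describe these libraries, a count uses 2-fold on the log2(value + 1) scale with a pair mean of 1 or more, and the 95% intervals on ratios of read shares cover counting error only. In a bulk library, fewer cells of a kind and less RNA per cell cannot be told apart.

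Promoter windows of T, Cdx2 and Gsc are shown because these genes were lower in KO and higher in shMef2c at day 5. Each runs over the 250 bases before the gene's start, from the RefSeq table for GRCm38.p6, and is written 5′ to 3′ on the gene's strand. Capitals mark matches on either strand to 4 short motifs, CTTTGA (TCF/LEF, the nuclear end of Wnt signalling), AGGTGT (T-box), TTTATG (caudal) and TAATCC (Gsc-type homeodomain).
T, chr17:8434173-8434422, plus strand: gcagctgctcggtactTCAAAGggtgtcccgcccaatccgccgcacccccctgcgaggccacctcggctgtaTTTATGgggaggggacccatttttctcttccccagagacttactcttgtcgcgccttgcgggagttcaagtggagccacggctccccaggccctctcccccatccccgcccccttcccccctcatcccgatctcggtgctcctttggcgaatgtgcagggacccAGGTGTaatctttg
Cdx2, chr5:147307250-147307499, minus strand: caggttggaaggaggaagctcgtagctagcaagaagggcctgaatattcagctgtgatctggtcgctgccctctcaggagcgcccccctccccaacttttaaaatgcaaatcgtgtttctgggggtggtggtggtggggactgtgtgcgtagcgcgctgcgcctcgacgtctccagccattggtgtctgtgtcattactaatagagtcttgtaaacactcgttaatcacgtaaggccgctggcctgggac
Gsc, chr12:104473237-104473486, minus strand: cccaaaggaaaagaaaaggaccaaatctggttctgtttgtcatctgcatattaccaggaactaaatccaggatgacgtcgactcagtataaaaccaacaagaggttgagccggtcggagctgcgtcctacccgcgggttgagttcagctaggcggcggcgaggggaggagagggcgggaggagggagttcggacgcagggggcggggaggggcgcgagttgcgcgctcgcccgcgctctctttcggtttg
The window of T held a TCF/LEF match, read on the other strand, that begins 234 bases before the start, a caudal match at 178 bases and a T-box match at 14 bases, none of which overlap. The windows of Cdx2 and Gsc held no match. Of 8 members with a window in the table (none for Mixl1, and Cdx1 was not analysed here), 2 held the TCF/LEF motif, T and Mesp1, and 3 the T-box motif, T, Evx1 and Mesp1. Over all 32851 windows, 13.8% held CTTTGA, 11.8% AGGTGT, 10.8% TTTATG and 6.25% TAATCC, so single matches were common. A match is a string of letters and not a measured site.

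T, also called Brachyury, is the T-box factor of the streak, the nascent mesoderm and the notochord. At day 5 it stood at 0.35 FPKM in KO, 40.5 in WT, 106 in shMef2c and 36.6 in shCtrl, from 19, 2246, 5795 and 1972 reads in that order. The KO library was low and the shMef2c library high, and both lay outside the span of the control libraries. The read share in KO was 0.00857 times that in WT (0.00515 to 0.0134), so 117-fold lower. In shMef2c the read share was 2.87-fold that of shCtrl (2.73 to 3.02). Between the controls, shCtrl over WT, it was 0.906 (0.853 to 0.963). T was the most abundant member per length in WT, shMef2c and shCtrl at day 5. In KO, Eomes took that place at 2.49 FPKM. Against shCtrl in place of WT, T in KO was 106-fold lower (67.6 to 176).

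T was already lower in KO among stem cells. At day 0 it stood at 1.19 RPKM in KO, 6.25 in WT, 6.35 in the library labelled shMef2c and 5.63 in shCtrl, and only the KO library stood apart. Its share in KO was 0.176 times that in WT (0.127 to 0.239) and 0.196 times that in shCtrl (0.141 to 0.267). The library labelled shMef2c held 1.13-fold the share of shCtrl (0.948 to 1.34), an interval that includes 1. Since the day 0 and day 5 tables were normalised separately, ranks among the 17363 genes in both were used to set the days side by side. The level of T exceeded that of 34.2% of these genes in KO at day 0 and 23.4% at day 5. In WT it exceeded 56.1% at day 0 and 88.5% at day 5. In shCtrl it exceeded 54.3% at day 0 and 87.3% at day 5. It exceeded 55.1% in the library labelled shMef2c at day 0 and 95.9% in shMef2c at day 5, which are set side by side only. The rank of T was thus higher at day 5 than at day 0 in WT and shCtrl and lower in KO.

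**Figure D1:**
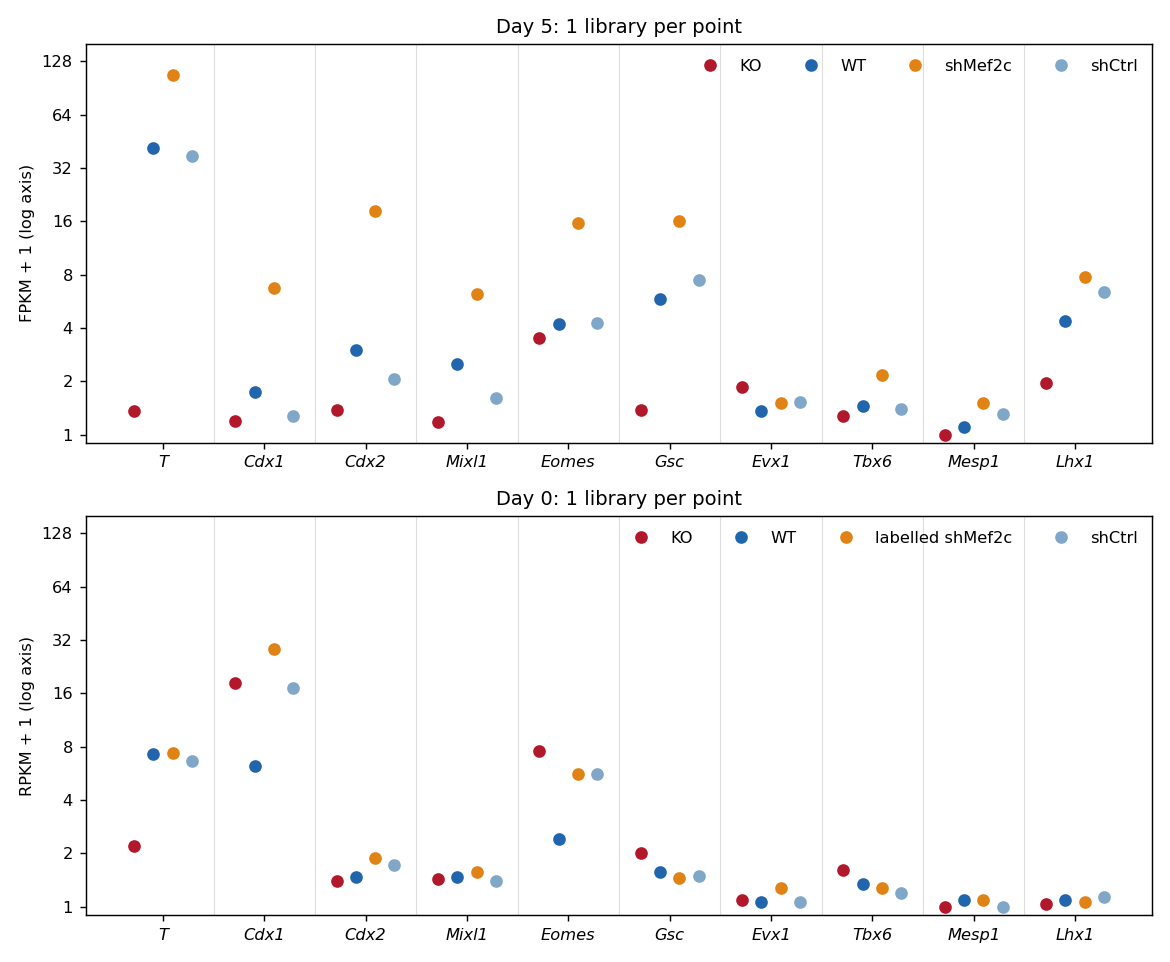
Level of each member in every library, day 5 (upper panel, FPKM + 1) and day 0 (lower panel, RPKM + 1), on log axes with 1 point per library. At day 5, T stands at 0.35 FPKM in KO and 106 FPKM in shMef2c, and at day 0 Cdx1 and Eomes are lowest in WT.

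T lies on chromosome 17, whose genes were lower in KO as a group. The median log2 ratio of KO over WT on that chromosome was -0.29 over 601 features at day 5 and -0.20 over 610 at day 0, against medians of all features of 0.00 and 0.03. For shMef2c over shCtrl at day 5 the chromosome 17 median was 0.01. For shCtrl over WT it was 0.00 at day 5 and 0.03 at day 0. A median away from 0 was not limited to chromosome 17. At day 0 chromosome 11, which holds Lhx1, had a median of -0.38 for KO over WT and -0.44 for shCtrl over WT. Both pairs use the day 0 WT library, and at day 5 the chromosome 11 median of KO over WT was 0.01. Among the 20 measured genes nearest T, 10 on each side in RefSeq gene order, the day 5 median of KO over WT was -0.23, with a range of -0.91 to 1.03. On the log2(FPKM + 1) scale none of these 20 was 2-fold lower, against -4.94 for T itself. Without the added 1 some were, among them Pde10a and Rsph3b, the latter at 3.56 FPKM in KO and 7.57 in WT. The adjacent Gm16702 stood at 1.40 FPKM in KO and 1.52 in WT, and Pde10a, a cyclic nucleotide phosphodiesterase, at 0.73 in KO and 2.01 in WT. At day 0 the 20 neighbours had a median of -0.23 and a range of -0.80 to 0.52, against -1.73 for T. The part of the chromosome 17 difference in the result for T was not tested. The authors' features assign T 1 RefSeq and 2 predicted transcripts, and the use of strand in the counting is not given in any source used here, so reads of an antisense transcript could not be set aside.

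**Figure D2:**
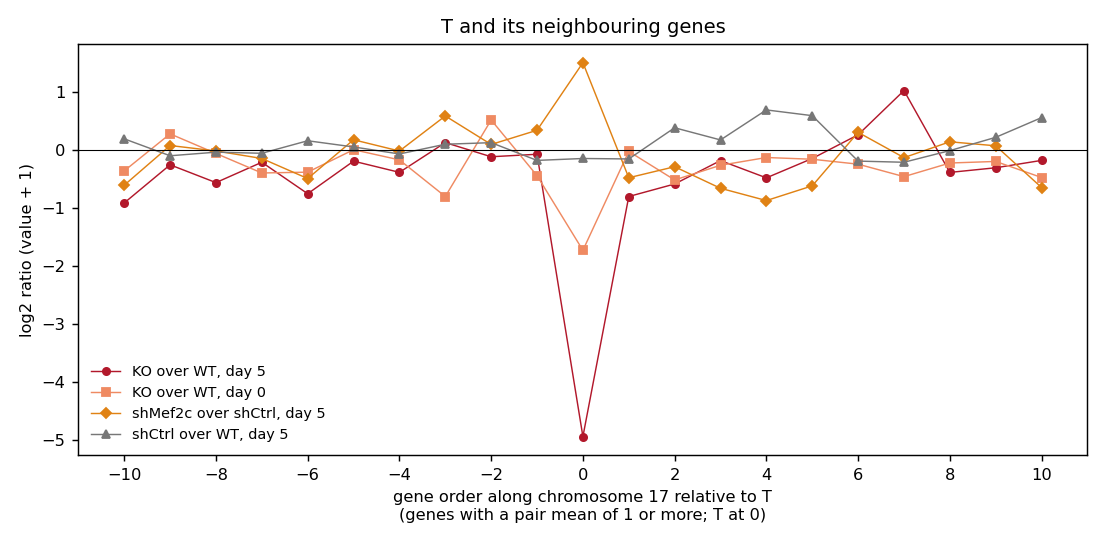
log2(value + 1) ratios of T (position 0) and of the 10 nearest measured genes on each side on chromosome 17, by gene order, for 4 comparisons. In KO over WT at day 5 the neighbours range from -0.91 to 1.03 and T is at -4.94, and in shMef2c over shCtrl T is at 1.51.

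Across the members, KO over WT at day 5 gave 5 genes with a pair mean of 1 or more (T, Cdx2, Eomes, Gsc and Lhx1). Of the 10 members, 0 were 2-fold higher, where 4.05% of the 12832 features tested were, and 4 were 2-fold lower (T, Cdx2, Gsc and Lhx1), where 3.26% were. All 4 passed through their WT level and lay under 1 FPKM in KO. In the knockdown pair, shMef2c over shCtrl, 7 members passed. Of the 10, 6 were higher (T, Cdx1, Cdx2, Mixl1, Eomes and Gsc), where 4.49% of 13041 features were, and 0 were lower, where 4.78% were. Cdx1 and Mixl1 passed through shMef2c alone. Between the controls at day 5, shCtrl over WT, 6 members passed and 0 differed in either direction, where 0.724% of 12845 features were higher and 0.272% lower. T, Cdx2 and Gsc were counted in both perturbed lines, in opposite directions, and these pairs have no control library in common. With the other control library in each pair, KO over shCtrl gave 0 members higher (4.65% of features) and 3 lower (T, Gsc and Lhx1, 5.52%), and shMef2c over WT gave the same 6 higher (3.99%) and 0 lower (3.22%).

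Cdx1 and Cdx2 are caudal-type homeodomain factors that set the Hox code of trunk and tail, and Cdx2 is also a factor of trophoblast and of intestinal epithelium. Cdx2 stood at 0.38 FPKM in KO, 2.02 in WT, 17.3 in shMef2c and 1.06 in shCtrl at day 5, from 21, 112, 954 and 57 reads in that order. The shMef2c library was far above the other 3. Its read share was 16.3 times that in shCtrl (12.5 to 21.7). In KO the share was 0.19 times that in WT (0.113 to 0.305), and between the controls, shCtrl over WT, 0.525 (0.375 to 0.729). Against shCtrl the KO share was 0.362 (0.208 to 0.606), and with a log2(FPKM + 1) ratio of -0.58 Cdx2 was not 2-fold lower. The call of Cdx2 in KO therefore rested on WT as the control. At day 0 Cdx2 was scarce throughout, with 0.39 RPKM in KO, 0.47 in WT, 0.88 in the library labelled shMef2c and 0.72 in shCtrl.

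Cdx1 stood at 0.20 FPKM in KO, 0.74 in WT, 5.70 in shMef2c and 0.28 in shCtrl at day 5, from 9, 33, 254 and 12 reads in that order. Only the shMef2c library was above 1 FPKM, with a share 20.7 times that in shCtrl (11.6 to 40.5). The share in KO was 0.276 times that in WT (0.116 to 0.590), and the controls differed by nearly as much, with 0.375 for shCtrl over WT (0.177 to 0.746). Cdx1 had more reads at day 0, unlike Cdx2, with 17.2 RPKM in KO, 5.22 in WT, 27.7 in the library labelled shMef2c and 16.1 in shCtrl. The WT library was the low one. Cdx1 exceeded 74.6% of shared genes in KO at day 0 and 19.2% at day 5, and in shCtrl 73.5% and 21.6%. In WT it exceeded 53.3% at day 0 and 30.2% at day 5. In the library labelled shMef2c it exceeded 82.6% at day 0, and in shMef2c 53.9% at day 5.

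Because Cdx2 also belongs to other tissues, their markers were set beside it at day 5. For trophoblast, 12 markers summed to 81.2 FPKM in KO, 24.6 in WT, 65.7 in shMef2c and 37.7 in shCtrl. The largest terms in KO were Rhox6, at 28.5 FPKM against 5.30 in WT, and Rhox9, at 21.15 against 4.73. The sum was highest in KO, where Cdx2 was lowest. The giant cell hormone gene Prl3d1 stood at 0.14 FPKM in KO and was at 0 in the other 3 libraries. Elf5, a trophoblast stem cell factor, was at 0.34 in KO, 0.04 in WT, 0.15 in shMef2c and 0.07 in shCtrl. For KO over WT, 6 of the 12 trophoblast markers passed, 3 higher (Rhox6, Rhox9 and Tfap2c) and 0 lower. The median log2 ratio was 1.29, and it was 0.64 with no filter and 0.48 with shCtrl as the control. For shMef2c over shCtrl 8 passed, 2 higher and 0 lower, with a median of 0.30 that was 1.08 with WT as the control. Among the markers that moved was Tfap2c, also a factor of germ cells and stem cells, at 23.7 FPKM in shMef2c and 4.28 in shCtrl. The 7 intestinal markers summed to 3.16 FPKM in KO, 2.12 in WT, 2.96 in shMef2c and 4.14 in shCtrl, and in shMef2c Fabp2 and Isx were at 0. The part of trophoblast cells in the level of Cdx2 was not tested.

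Mixl1, a homeodomain factor of the streak and of endoderm formation, stood at 0.17 FPKM in KO, 1.5 in WT, 5.25 in shMef2c and 0.61 in shCtrl at day 5. Reads were 10, 89, 310 and 35 in that order. The shMef2c library was the high one and KO the low one, but the controls also differed, with a share in shCtrl 0.406 times that in WT (0.266 to 0.607). The shMef2c library held an 8.65-fold larger share than shCtrl (6.09 to 12.6) and a 3.51-fold larger one than WT (2.77 to 4.50). In KO it was 0.114 times that in WT (0.0528 to 0.219) and 0.280 times that in shCtrl (0.124 to 0.578). At day 0 Mixl1 lay between 0.40 and 0.57 RPKM in all 4 libraries.

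Eomes, a T-box factor that opens mesendoderm fates and also acts in trophoblast, was higher in shMef2c alone. It stood at 2.49 FPKM in KO, 3.19 in WT, 14.7 in shMef2c and 3.27 in shCtrl at day 5. Its share was 4.48-fold larger in shMef2c than in shCtrl (3.96 to 5.08). In KO it was 0.779 times that in WT (0.656 to 0.925), so Eomes stayed near its control level where T was 117-fold lower. The controls differed by a ratio of 1.03. At day 0 it stood at 6.53 RPKM in KO, 1.41 in WT, 4.64 in the library labelled shMef2c and 4.60 in shCtrl, with WT the low library.

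Gsc, a homeodomain repressor of the organiser and anterior streak, stood at 0.38 FPKM in KO, 4.83 in WT, 15.1 in shMef2c and 6.41 in shCtrl at day 5. Reads were 11, 143, 445 and 185 in that order. Its order over the libraries was that of T, except that shCtrl stood above WT. The share in KO was 0.0779 times that in WT (0.0380 to 0.144) and 0.0583 times that in shCtrl (0.0286 to 0.107). In shMef2c it was 2.35 times that in shCtrl (1.97 to 2.80), and shCtrl over WT gave 1.34 (1.07 to 1.67). At day 0 Gsc had 24 reads in KO, 14 in WT, 11 in the library labelled shMef2c and 12 in shCtrl. The interval on the day 0 ratio of KO over WT, 0.876 to 3.69, includes 1.

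Lhx1, a LIM homeodomain factor of the anterior streak and node and also of spinal interneurons, was lower in KO at day 5. It stood at 0.96 FPKM in KO, 3.40 in WT, 6.74 in shMef2c and 5.38 in shCtrl at day 5. The share in KO was 0.282 times that in WT (0.212 to 0.371) and 0.178 times that in shCtrl (0.135 to 0.231). In shMef2c it was 1.25 times that in shCtrl (1.09 to 1.43), beside 1.59 for shCtrl over WT (1.35 to 1.87), and 1.98 times that in WT (1.70 to 2.32). At day 0 Lhx1 had 2 to 8 reads in every library. For the interneuron lineage, 8 markers summed at day 5 to 14.1 FPKM in KO, 23.2 in WT, 3.43 in shMef2c and 30.5 in shCtrl. That sum was lowest in shMef2c, where Lhx1 was highest, and Dbx1, a factor of interneuron progenitors, stood there at 0.30 FPKM, against 15.7 in shCtrl. Evx2 was at 0 in shMef2c and highest in KO, at 0.55 FPKM, and Lhx5 stood at 4.09 in KO and 1.89 in WT. For KO over WT 4 of these markers passed, 0 higher and 2 lower. The part of interneurons in the level of Lhx1 was not tested.

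Evx1, a homeodomain factor of the posterior streak and of spinal interneurons, was the one member with its highest day 5 level in KO. It stood at 0.85 FPKM in KO, 0.35 in WT, 0.50 in shMef2c and 0.52 in shCtrl, from 63, 26, 37 and 38 reads in that order. The share in KO was 2.45 times that in WT (1.53 to 4.04) and 1.63 times that in shCtrl (1.07 to 2.50). All 4 levels lay under 1 FPKM, so Evx1 did not pass the filter. At day 0 it had 16 reads in the library labelled shMef2c and 3 in shCtrl, with 4 each in KO and WT.

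Tbx6, the T-box factor that commits cells to paraxial mesoderm, stood at 0.27 FPKM in KO, 0.45 in WT, 1.16 in shMef2c and 0.39 in shCtrl at day 5. Its share was 2.93-fold larger in shMef2c than in shCtrl (1.66 to 5.41), from 51 and 17 reads. In KO over WT the interval, 0.271 to 1.31, includes 1. Mesp1, a helix-loop-helix factor of early cardiac and cranial mesoderm, had few reads in every library. At day 5 it had 0 reads in KO, 3 in WT, 14 in shMef2c and 8 in shCtrl, and at day 0 at most 2 reads. The interval for shMef2c over shCtrl at day 5, 0.669 to 4.70, includes 1.

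**Figure D3:**
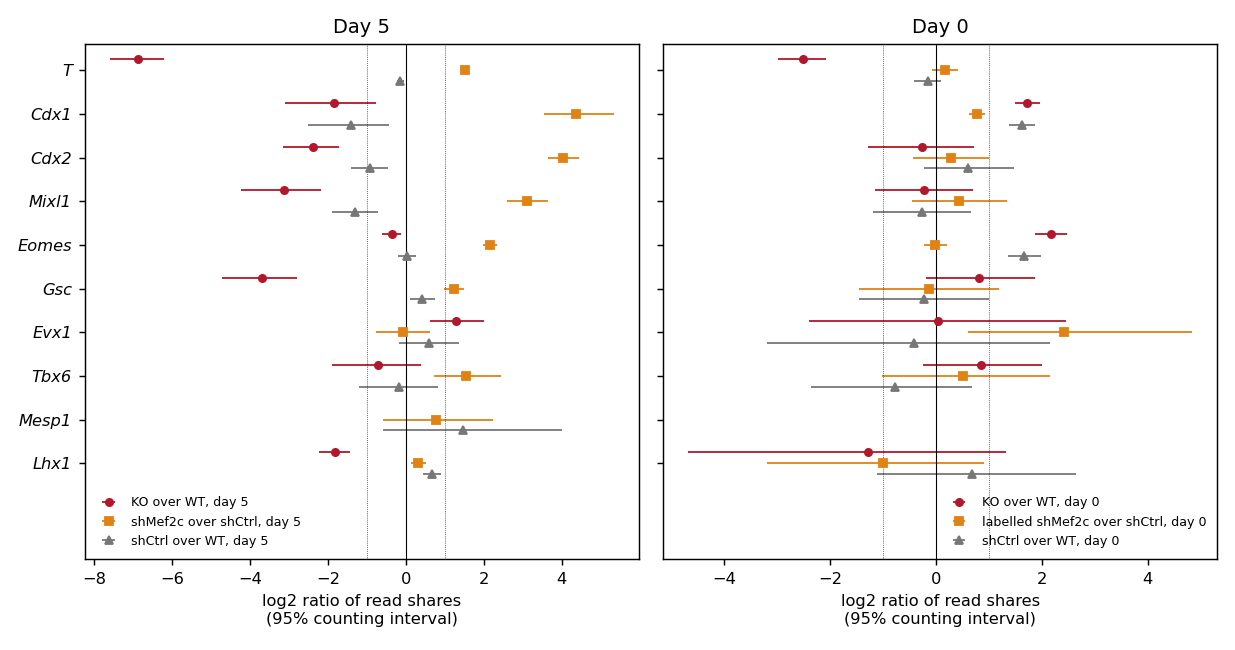
log2 ratio of read shares of each member with its 95% counting interval, day 5 (left) and day 0 (right), for KO over WT, shMef2c over shCtrl and shCtrl over WT. Dotted lines mark 2-fold, and a ratio with a library at 0 reads is not drawn. At day 5, T, Cdx2 and Gsc lie left of 0 in KO over WT and right of it in shMef2c over shCtrl, while at day 0 Cdx1 and Eomes lie right of 0 both in KO over WT and in shCtrl over WT.

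At day 0, 3 members (T, Cdx1 and Eomes) passed the filter in each comparison. For KO over WT, 2 were higher (Cdx1 and Eomes), where 1.35% of 12002 genes were, and T was lower, where 1.58% were. The shares of Cdx1 and Eomes in KO were 3.30 (2.80 to 3.91) and 4.49 times (3.64 to 5.57) those in WT. The comparison of shCtrl over WT gave the same 2 genes higher, where 0.755% of 11921 genes were, and 0 lower, where 0.512% were. There the shares of Cdx1 and Eomes were 3.08 (2.61 to 3.65) and 3.18 times (2.56 to 3.98) those in WT. Against shCtrl in place of WT, 0 members were 2-fold higher in KO, where 0.833% of genes were, and T alone was lower, where 0.966% were, with shares of 1.07 (0.955 to 1.20) for Cdx1 and 1.41 (1.23 to 1.62) for Eomes. The day 0 counts for these 2 genes thus went with the WT library, which also had a lower level of them than the library labelled shMef2c (2 members higher over WT, where 1.9% of genes were). In that library over shCtrl, 0 members were higher, where 0.132% of 12103 genes were, and 0 lower, where 0.0991% were. Its feeder fibroblast markers summed to 363 RPKM, against 200 in KO, 215 in WT and 221 in shCtrl, and the part of feeder cells in its member levels was not tested.

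The authors' deposited table for KO over WT at day 5 lists 7 members among its 2253 genes. Its log2 ratios, without a pseudocount, were -6.85 for T, -3.67 for Gsc, -3.14 for Mixl1, -2.41 for Cdx2, -1.89 for Cdx1 and -1.82 for Lhx1. In that deposited table of the authors Evx1 alone among the members was higher, at 1.28. The authors' deposited table for shMef2c over shCtrl lists 7 members among 2758 genes, all higher. In that authors' deposited table the log2 ratios were 4.35 for Cdx1, 4.03 for Cdx2, 3.11 for Mixl1, 2.17 for Eomes, 1.57 for Tbx6, 1.54 for T and 1.24 for Gsc. Caudal factors thus had the largest ratios in shMef2c, and T and Gsc the largest in KO, in the opposite direction.

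The genes whose day 5 profile lay nearest to a member were found by distance on centred log2(FPKM + 1) values over the 4 day 5 libraries, among 11261 genes. Nearest to T was Cer1, a secreted inhibitor of Nodal, BMP and Wnt signals (distance 1.20), at 0.14 FPKM in KO, 12.6 in WT, 30.3 in shMef2c and 13.3 in shCtrl. Nearest to Cdx1 was Cdx4, the other caudal gene of the family (0.282), at 0.02 FPKM in KO, 0.32 in WT, 5.69 in shMef2c and 0.10 in shCtrl. Nearest to Cdx2 was Nkx1-2, a homeodomain gene of the caudal epiblast (0.587), at 0.68 FPKM in KO, 3.12 in WT, 13.8 in shMef2c and 1.60 in shCtrl. Nt5e was nearest to Mixl1 (0.160), Hoxb5os to Gsc (0.348) and Mnx1 to Lhx1 (0.203). The distance from T to its nearest gene was larger than that of Cdx1, Cdx2, Mixl1, Gsc and Lhx1. Distances were not scaled for the size of a gene's changes, and T had the widest range of the members, from 0.35 to 106 FPKM.

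Other genes around the streak were counted by list. Over all features at day 5, 4.05% were 2-fold higher and 3.26% lower for KO over WT. For shMef2c over shCtrl 4.49% were higher and 4.78% lower, and for KO over shCtrl 4.65% and 5.52%. Of 14 signals and feedback genes of the streak, 13 passed for KO over WT, 3 higher and 0 lower, with a median log2 ratio of 0.42 beside 0.00 for all features. With shMef2c over shCtrl 13 passed, 10 higher and 0 lower, with a median of 1.47 beside -0.05. Lefty2, a Nodal inhibitor, stood at 37.9 FPKM in KO against 12.3 in WT and at 65.5 in shMef2c against 6.99 in shCtrl. Fgf8, a streak growth factor, stood at 7.89 FPKM in KO against 11.6 in WT and at 32.6 in shMef2c against 6.73 in shCtrl. The 3 genes higher in KO over WT were Fgf4, Lefty1 and Lefty2, in a library where T and Gsc were low. With shCtrl as the control of KO, 12 genes passed, 6 higher and 2 lower, with a median of 1.01, so this list depended on the control. Nodal itself stood at 17.7 FPKM in KO, 10.2 in WT, 32.5 in shMef2c and 5.38 in shCtrl, under 2-fold for KO over WT and past it for KO over shCtrl. Several genes of the list, such as Tdgf1 and Gdf3, are also expressed in undifferentiated stem cells. The 10 pluripotency markers listed as naive summed to 707 FPKM in KO, 328 in WT, 916 in shMef2c and 233 in shCtrl. Pou5f1 was the largest term in each, at 284 FPKM in KO, 182 in WT, 433 in shMef2c and 131 in shCtrl. The part of undifferentiated cells in the member levels was not tested.

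The 12 caudal and neuromesodermal genes share Fgf8 and Wnt3a with the streak signals and Evx2 with the interneuron markers, so these lists overlap. Of the 12, 8 passed for KO over WT, 0 higher and 2 lower, with a median of -0.53. The lower genes were Wnt8a, a streak Wnt ligand, at 2.59 FPKM in KO and 9.98 in WT, and Nkx1-2. In the pair of shMef2c over shCtrl 9 passed, 5 higher and 0 lower, with a median of 1.69 that was 0.11 with no filter on low values. Of these 9, 2 (Cdx4 and Fgf17) were under 1 FPKM in shCtrl and passed through shMef2c alone, which favours a higher count. Hes3 was under 1 FPKM in shMef2c and passed through shCtrl alone. Fgf17 stood at 6.13 FPKM in shMef2c and 0.62 in shCtrl. Of 18 trunk Hox genes (paralogues 5 to 10), 12 passed for shMef2c over shCtrl, 9 higher and 0 lower, with a median of 1.41 that was 1.08 with no filter. Of these 12, 8 were under 1 FPKM in shCtrl and passed through shMef2c alone, which favours a higher count. Hoxb9 stood at 11.7 FPKM in shMef2c and 2.94 in shCtrl, Hoxa7 at 5.10 in shMef2c and 0.42 in shCtrl, and Hoxc8 at 5.04 in shMef2c and 0.55 in shCtrl. In KO over WT only Hoxb9 passed, at 0.20 FPKM in KO and 1.98 in WT, and 8 of the 18 were listed at 0 in KO.

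Of 12 node and anterior streak genes, 11 passed for KO over WT, 1 higher and 5 lower, with a median of -0.82. Cer1 was the lowest. The notochord gene Shh stood at 3.18 FPKM in KO and 20.3 in WT, the BMP antagonist Chrd at 0.65 in KO and 6.62 in WT, and Foxa2 at 6.45 in KO and 30.4 in WT. Among shMef2c and shCtrl values 12 passed, 2 higher and 1 lower, with a median of 0.34. There the notochord factor Noto stood at 6.52 FPKM in shMef2c and 1.01 in shCtrl, and Shh at 13.4 in shMef2c and 28.45 in shCtrl. Shh and Foxa2 also mark the floor plate of the neural tube. Of 11 visceral endoderm markers, which include Cer1, Foxa2 and Sox17, 10 passed for KO over WT, 7 higher and 2 lower (Cer1 and Foxa2), with a median of 2.34 that was 0.64 with shCtrl as the control. Of these 10, 3 (Afp, Ttr and Apob) were under 1 FPKM in WT and passed through KO alone, which favours a higher count. Cer1 was under 1 FPKM in KO and passed through WT alone. The serum protein gene Afp stood at 23.3 FPKM in KO and 0.30 in WT, Ttr, a thyroid hormone carrier, at 22.7 in KO and 0.51 in WT, and the uptake receptor gene Cubn at 19.9 in KO and 1.18 in WT. For shMef2c over shCtrl 6 markers passed, 1 higher and 3 lower. The markers summed to 129.6 FPKM in KO, 57.2 in WT, 87.3 in shMef2c and 116.6 in shCtrl. The sums of KO and shCtrl came only in part from the same genes. In shCtrl, Afp stood at 0.36 FPKM, Cubn at 0.56 and Ttr at 3.97, while Foxa2 stood at 37.4. Rbp4 and Apoa1 were large terms in both, Rbp4 at 22.9 FPKM in KO and 30.2 in shCtrl. Apoa1 stood at 10.0 in KO and 22.1 in shCtrl. The part of visceral endoderm in the member levels was not tested.

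Of 12 paraxial mesoderm genes, 5 passed for KO over WT, 1 higher and 3 lower, with a median of -1.04 that was -0.37 with no filter. Lfng, a Notch modifier of somites and neural progenitors, stood at 5.14 FPKM in KO and 18.2 in WT. For shMef2c over shCtrl 9 passed, 3 higher and 2 lower, with a median of 0.41. Rspo3, a Wnt enhancer of the tail bud, stood at 10.25 FPKM in shMef2c and 2.94 in shCtrl, while the Notch ligand Dll1 stood at 3.43 in shMef2c and 12.95 in shCtrl. Of 10 lateral and cardiac mesoderm genes, 4 passed for KO over WT, 2 higher and 1 lower, and 5 for shMef2c over shCtrl, 0 higher and 2 lower. Isl1, a factor of cardiac and motor neuron progenitors, stood at 0.69 FPKM in shMef2c and 13.55 in shCtrl.

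**Figure D4:**
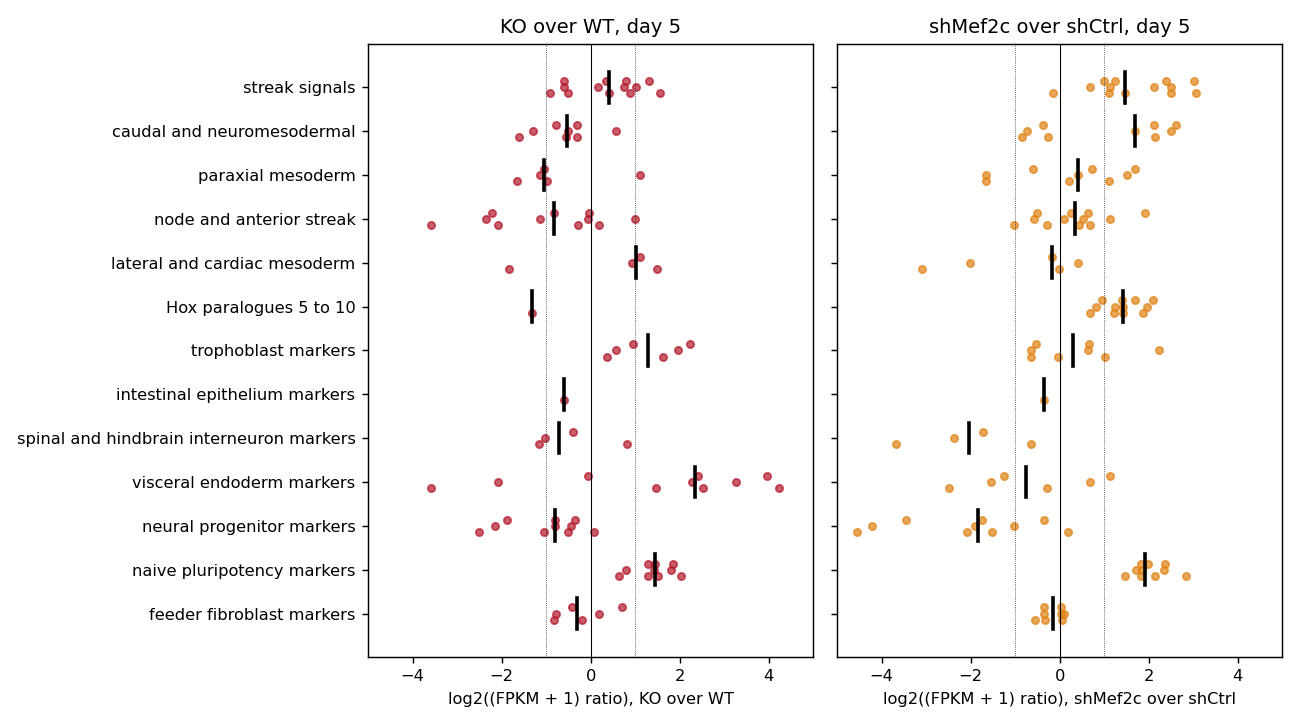
log2(FPKM + 1) ratios at day 5 of the genes of each list with a pair mean of 1 or more (points) and their median (bars), KO over WT on the left and shMef2c over shCtrl on the right. Caudal and neuromesodermal genes have a median of -0.53 in KO over WT and 1.69 in shMef2c over shCtrl, and naive pluripotency markers lie above 0 in both, at 1.44 and 1.92.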

How the data were processed

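Each of the 8 groups was 1 polyadenylated RNA library of mouse 46C cells, grouped by title. Per the file headers, the authors deposited FPKM and estimated counts per gene for day 5, and a single day 0 table of RPKM and estimated counts. Values below 0.01 FPKM are missing from the deposited day 5 files and were set to 0. The authors also deposited day 5 comparison tables with log2 ratios and adjusted p-values, which the labels tie to a Poisson method, for selected genes only. RSEM, Bowtie, Bowtie2, HISAT, HISAT2 and the build mm9 appear in the submitters' processing notes without role or version. mm9 coordinates were not used.

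Ratios were log2((value + 1)/(value + 1)), a scale that understates the change of scarce genes, with a call at 2-fold and a pair mean of 1 or more. Ratios of read shares carry exact conditional (Clopper-Pearson) 95% intervals from the estimated counts, rounded to whole reads, and cover counting error only. No p-value was computed. Scripts (Python 3.11.15, numpy 2.4.6, pandas 2.3.3, scipy 1.17.1) were tested on simulated data. Alternatives were a pseudocount of 0.1, other filters and folds, other scalings (TMM of edgeR 4.0.16, DESeq2 1.42.0 size factors, TPM, median centring) and the other control library. The members, lists and motifs were chosen with earlier results of these data known. Named genes are all 10 members, up to 4 genes of each list with the largest absolute ratios per day 5 comparison, and the nearest profiles among genes that reach 2 FPKM, without LOC, Rik, Gm, predicted or unnamed genes. The nearest profile of Eomes is not reported here. Fgf8, Nodal, Tdgf1 and Gdf3, the marker genes named by level and the neighbours of T were named after their values were seen.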

Additional observations from a re-analysis of the deposited data

Results flagged for a closer look

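Eomes had log2 ratios of KO over WT in opposite directions at the 2 days, -0.26 at day 5 (2.49 FPKM in KO and 3.19 in WT) and 1.64 at day 0 (6.53 RPKM in KO and 1.41 in WT). The difference between the days was not tested, since each value rests on 1 library per group. Against shCtrl the day 0 ratio of KO was 0.43, and shCtrl over WT at day 0 was 1.22.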

How the results depend on the processing

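No paired analysis was possible because every group is 1 library, and for the same reason no replicate could be left out. Of 207 member ratios recomputed under alternatives, 180 moved by less than the distance from the middle to an end of their own 95% counting interval and 27 by more. That interval is wide for scarce genes, and 5 ratios crossed 0, all of Eomes in pairs where it was not called. For KO over WT at day 5, 4 lower members became 1 with a pair mean of 5 or more (T) and 2 at 4-fold (T and Gsc), 3 with shCtrl as the control (without Cdx2), and 5 with no filter, TPM, TMM or DESeq2 size factors (with Mixl1). For shMef2c over shCtrl at day 5, 6 higher members became 2 at 4-fold (Cdx1 and Cdx2) and 4 with a pair mean of 5 or more (without Cdx1 and Mixl1). For KO over WT at day 0, 2 higher members became 1 with a pair mean of 5 (Cdx1), and 0 at 4-fold, 0 with shCtrl as the control and 0 with both controls required, an alternative chosen after seeing the data. There, the 1 lower member (T) became 0 with a pair mean of 5 and 0 at 4-fold. For the library labelled shMef2c over shCtrl at day 0, 0 higher members became 1 at 1.5-fold (Cdx1) and 2 with WT as the control (Cdx1 and Eomes). For shCtrl over WT, 0 lower members at day 5 became 1 (Mixl1) with a pseudocount of 0.1 and 1 at 1.5-fold. At day 0, 2 higher became 1 with a pair mean of 5 (Cdx1) and 0 at 4-fold. Of 257 list medians, 235 stayed on their side of 2-fold and 22 did not. With the other control, 3 changed sign, the lateral and cardiac medians of KO (1.02 over WT, -0.18 over shCtrl) and of shMef2c, and the visceral endoderm median of shMef2c (-0.77 over shCtrl, 0.81 over WT). With TMM factors the caudal median of shMef2c over shCtrl was 0.63. The causes were not tested. Mesp1, and Lhx1 and Evx1 at day 0, had at most 16 reads in any library, which left wide intervals.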

Other observations

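At day 0, several streak and caudal genes outside the members stood apart in KO. Lefty1, a Nodal inhibitor, stood at 5.09 RPKM in KO, 30.2 in WT, 39.3 in the library labelled shMef2c and 55.4 in shCtrl, and Lefty2 at 41.4 in KO, 188 in WT, 152 in the library labelled shMef2c and 165.6 in shCtrl. The growth factor gene Fgf17 stood at 1.54 RPKM in KO, 10.4 in WT, 4.00 in the library labelled shMef2c and 7.60 in shCtrl. Nkx1-2 ran the other way, at 4.85 RPKM in KO, 0.93 in WT, 2.52 in the library labelled shMef2c and 2.00 in shCtrl, as did Hoxb9, at 9.52 in KO, 3.37 in WT, 5.04 in the library labelled shMef2c and 4.80 in shCtrl. Both were called 2-fold higher in KO over WT, the lowest library for each, but neither was in KO over shCtrl. For Lefty1, Lefty2 and Fgf17 the KO library was the lowest of the 4, as it was for T. Otx2, a factor of anterior streak and forebrain, was lowest in the library labelled shMef2c, at 1.01 RPKM, against 4.02 in shCtrl.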
